A study of Homo sapiens with 4 samples.

Results

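Interferon signalling runs from a secreted ligand to a small set of transcription factors, and the 9 genes described here cover that route. They are the transcription factors IRF1, IRF2, IRF3, IRF5, IRF7 and IRF9, the partner STAT2, and IFNAR1 and IFNAR2, the subunits of the type I interferon receptor. They were chosen by gene symbol, and all 9 were found among the 15218 genes of the count table. Of these, 8 passed the filter on low counts and were tested with 14620 genes in all, and IRF5 did not pass it.

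The libraries were made from 293T cells, a human embryonic kidney line that carries the SV40 large T antigen. RNA sequencing compared 2 control libraries with 2 FOXP4 KO libraries, and FOXP4 is a forkhead transcription factor. The study's text names CRISPR-Cas9 in one place and a FOXP4-shRNA virus followed by puromycin in another, and the labels call these cells a knock down, so how FOXP4 was lowered cannot be told. Both KO libraries carry the same line number and were read as 1 line. Whether the 2 libraries of a group were grown separately is not stated, and the p-values describe only how these 4 libraries scattered, and that scatter may be technical.

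When a cell senses viral nucleic acid, adaptor proteins such as MAVS, STING1 and MYD88 lead to phosphorylation of IRF3 and IRF7, which switch on the interferon genes. Secreted type I interferon binds IFNAR1 and IFNAR2, the kinases TYK2 and JAK1 phosphorylate STAT proteins, and a complex that holds STAT2 and IRF9, called ISGF3, forms. ISGF3 binds the interferon-stimulated response element (ISRE) in the promoters of interferon-stimulated genes, and IRF7 is itself such a gene in many cells. IRF1 activates and IRF2 mostly represses promoters with closely related elements. IRF5 acts mainly in myeloid and B cells.

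FOXP4 had 2562 and 2463 counts in control replicates 1 and 2, and 713 and 886 in KO replicates 1 and 2. Its log2 fold change was −1.78 (SE 0.185, adjusted p = 0.0038, edgeR's quasi-likelihood test with Benjamini-Hochberg adjustment), and the transcript was still counted in both KO libraries. Totals were 36393224 to 43057305 counts per library, and 4.79% to 6.84% of them came from mitochondrial genes. Of 10 markers fixed for embryonic kidney and 293 cells, 9 were at 1 TPM or more in all 4 libraries, and PAX8 was at or under 0.0521 TPM. The summed level of this list was 1112 and 1192 TPM in the controls and 717 and 639 TPM in the KO libraries. VIM held most of the control sum, at 724 and 909 TPM in the controls and 245 and 155 TPM in the KO libraries. It was the only marker of the list called lower, by 1.99 on the log2 scale. NEFM, the only one called higher, rose by 1.97, so the lower sum does not describe the list as a whole. Of the markers of other cell types, 6 for blood summed to 1.51 to 3.52 TPM with PTPRC and HBB at or near 0. The 4 fibroblast markers summed to 6.79 to 11.5 TPM, and the 2 endothelial ones reached 0.0726 TPM at most. In bulk libraries fewer cells of a type and less RNA per cell cannot be told apart.

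Promoter sequence shows where the factors of this route could bind, so short matches are given before the values. Windows of RefSeq on GRCh38.p14, from 250 bases before to 50 after a transcription start, were searched on both strands for the ISRE letters GAAANNGAA, the letters TTCNNNGAA of the gamma-activated site (GAS) that STAT dimers bind, and the forkhead letters TGTTTAC. The ISRE letters were in 8.11% of 35116 windows, the GAS letters in 7.66% and the forkhead letters in 3.42%. Windows were given for IRF1, IRF5, IRF9, STAT2 and IFNAR1. IRF2, IRF3, IRF7 and IFNAR2 had none. Matches in the members are printed 5′ to 3′ on the gene's strand, with the matched letters in capitals. A match is a description of letters, not of a bound site.
IRF1 GAS, −124 to −116 from the start, chr5:132490879-132490907, minus strand: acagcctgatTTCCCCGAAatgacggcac
IRF9 GAS, −63 to −55 from the start, chr14:24161192-24161220, plus strand: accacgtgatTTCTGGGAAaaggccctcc
IFNAR1 forkhead, −149 to −143 from the start, chr21:33324236-33324262, plus strand: gggctcgaatTGTTTACtgataaagcc
IRF5 ISRE read on the opposite strand, −4 to 5 from the start, chr7:128941254-128941282, plus strand: gagctgtggcTTCTGTTTCctgtagcctt
The STAT2 window held none of these letters, and of the members with a window only IRF5, which was near 0 in these cells, held the ISRE letters, in 1 of its 4 windows.

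Levels of different genes were compared as TPM, a measure of transcript abundance that is corrected for gene length and depth. In the controls IRF3 had the highest mean of the 9, at 37.9 TPM, followed by IFNAR1 at 27.3 TPM. IFNAR2 at 25.5 TPM and STAT2 at 25.03 TPM overlapped between libraries and were not separated. IRF9 stood at 8.87 TPM, IRF1 at 6.02 TPM and IRF2 at 3.93 TPM, each above the next in both control libraries. IRF7 was low at 0.960 TPM and IRF5 lowest at 0.146 TPM.

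In the KO libraries IRF3 (32.9 TPM) again came first and STAT2 (26.8 TPM) second. IFNAR2 (20.1 TPM) and IFNAR1 (18.7 TPM) overlapped. IRF2 (8.36 TPM) and IRF7 (7.28 TPM) stood above IRF9 (3.63 TPM), and IRF7 overlapped with IRF1 (6.59 TPM). IRF9 had been above IRF1, IRF2 and IRF7 in both control libraries and was below all 3 in both KO libraries. IRF5 remained lowest at 0.0640 TPM.

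**Figure D1:**
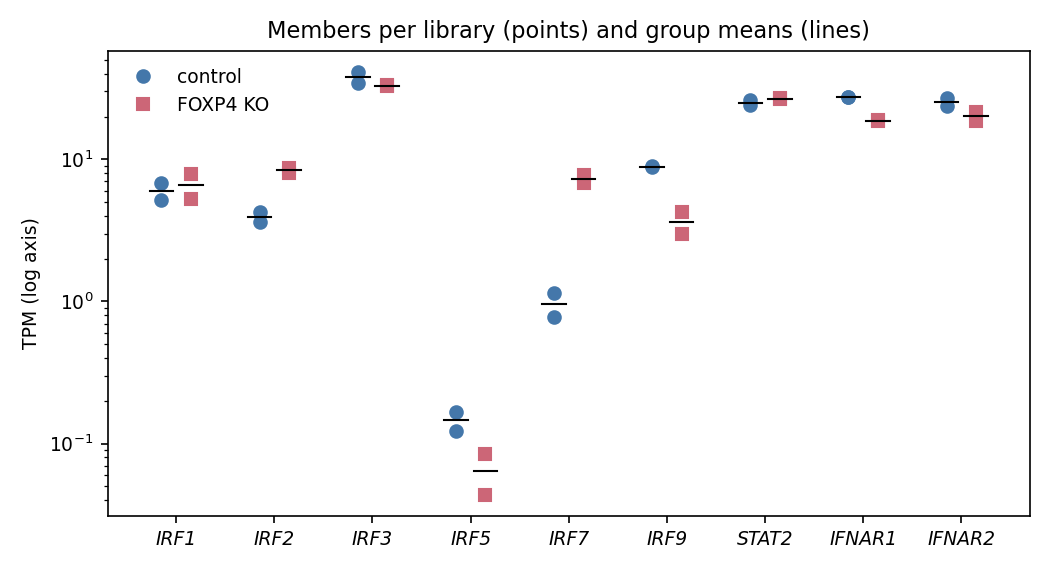
TPM of the 9 genes in each library on a log axis, with control libraries as circles, FOXP4 KO libraries as squares and group means as lines. IRF7 moves from 0.960 to 7.28 TPM on average and IRF9 from 8.87 to 3.63 TPM, while IRF3 stays the highest of the 9.

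Across the 8 tested genes, 2 rose (IRF7 and IRF2), 3 fell (IRF9, IFNAR1 and IFNAR2) and 3 were not called (IRF1, IRF3 and STAT2). Of all 14620 tested genes 13.8% were called higher and 12.1% lower, so calls in either direction were common in this comparison. These were 2013 genes higher and 1765 lower, and with upper-quartile scaling 2383 and 1368. In CPM, the counts scaled to library size with TMM factors, the groups did not overlap for 6 of the 8, and this held for 68.7% of all tested genes. The median log2 fold change of the 8 was 0.04 beside 0.01 for all tested genes, and the median absolute log2 fold change was 0.522 beside 0.355.

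In counts the receptor genes came down by a like amount. On log2(TPM + 1) IFNAR1 was at −0.52 and IFNAR2 at −0.33, and IFNAR2 was not called there (limma adjusted p = 0.15). IFNAR1, the subunit whose tail binds TYK2, had 2894 and 3453 counts in the controls and 2426 and 2359 in the KO libraries, or 80.8 ± 1.20 CPM against 56.3 ± 0.134 CPM (SD, n = 2 each). Both KO libraries lay below both controls, and the log2 fold change was −0.52 (SE 0.106, edgeR adjusted p = 0.019). Without control replicate 1 the edgeR adjusted p was 0.050, and without KO replicates 1 and 2 in turn it was 0.10 and 0.096, so the call was kept in 1 of these 4 fits, that without control replicate 2.

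IFNAR2, the subunit that binds ligand with high affinity and whose tail holds STAT2, had 1070 and 1379 counts in the controls and 995 and 841 in the KO libraries. Scaled to depth these were 31.1 ± 1.23 and 21.6 ± 2.09 CPM (SD, n = 2 each), and the groups did not overlap. The log2 fold change was −0.52 (SE 0.143, edgeR adjusted p = 0.042), close to the threshold of 0.05. The call was lost when any 1 of the 4 libraries was left out, with edgeR adjusted p from 0.071 to 0.21. It was also lost in 6 of 11 other settings. The ratio of IFNAR1 to IFNAR2 in TPM was 1.15 and 1.003 in the controls and 0.873 and 0.995 in the KO libraries.

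Both receptor genes lie on chromosome 21 and share a neighbourhood. In GRCh38 with the GENCODE v29 annotation, IFNAR2 spans chr21:33229901-33265675 and IFNAR1 chr21:33324477-33359862, both on the plus strand. Of the 23 tested genes that start within 1 Mb of IFNAR1, 9 were called lower and 1 higher, with a median log2 fold change of −0.49, near IFNAR1's own −0.52. IFNAR2 is itself among the 9 called lower. Counts of neighbours here and below stand beside 13.8% of all tested genes called higher and 12.1% lower. From 1 to 5 Mb away the median of 34 genes was −0.08. The part of this stretch in the fall of the receptor genes was not tested. Exons of IFNAR2 share 44.2% of their bases with the readthrough gene AP000295.1 on the same strand, which had 45, 90, 69 and 77 counts and did not pass the test. IL10RB-DT on the opposite strand covers 39.1% of the exonic bases of IFNAR2 and was not in the count table, and without strand its reads cannot be told from those of IFNAR2.

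The other receptors and kinases gave 1 call among 7 tested genes, all with a log2 fold change below 0 and a median of −0.31. The call was lower, as for 12.1% of all tested genes. JAK1, the kinase on IFNAR2, fell by 0.63 on the log2 scale (SE 0.114, edgeR adjusted p = 0.013), from 7053 and 7597 counts to 5147 and 5143. Its edgeR adjusted p reached 0.077 without KO replicate 1, and it kept its call in 2 of the 4 fits with 1 library left out. TYK2, the kinase on IFNAR1, was at −0.44 and did not pass the test (edgeR adjusted p = 0.065). It was called lower in 5 of 11 other settings, among them DESeq2 (adjusted p = 0.032), log2(TPM + 1) (limma adjusted p = 0.027) and the replicate block (edgeR adjusted p = 0.046), which made 2 calls among the 7. The neighbours of IFNAR1 and IFNAR2 on chromosome 21 that encode receptor chains, IL10RB and IFNGR2, were at −0.35 and −0.16 and did not pass it either. IL10RB had 726 and 505 counts in the controls and 753 and 321 in the KO libraries, so its groups overlapped.

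**Figure D2:**
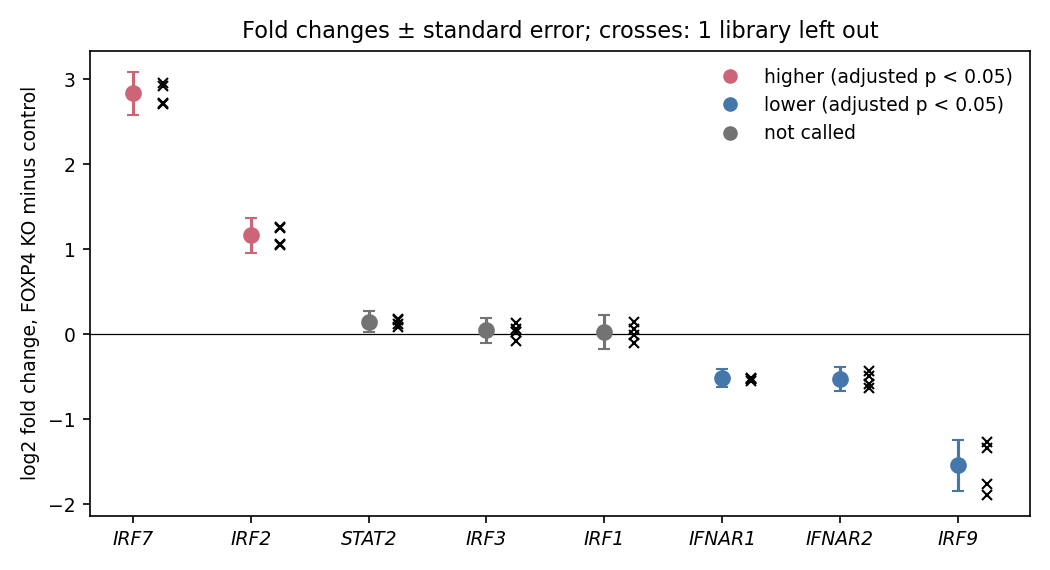
Log2 fold change (FOXP4 KO minus control) of the 8 tested genes with standard errors, coloured by call, and the 4 values obtained with 1 library left out as crosses. IRF7 at 2.84 and IRF9 at −1.54 lie farthest from 0, and the crosses of both stay on the side of the full value.

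IRF7 had the largest change of the 8. This factor drives the broad set of interferon alpha genes and is low in most resting cells. It had 29 and 40 counts in the controls and 247 and 284 in the KO libraries, or 0.872 ± 0.0764 CPM against 6.26 ± 0.755 CPM (SD, n = 2 each). Every KO value was well above every control value. The rise was 7.14-fold, with a log2 fold change of 2.84 (SE 0.253, edgeR adjusted p = 0.0025). IRF7 was called in all 4 fits with 1 library left out, at 2.71 to 2.95, and in all 11 other settings, with 2.08 on the log2(TPM + 1) scale, which understates the change of low genes.

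IRF7 spans chr11:612553-615999 on the minus strand, and no annotated exon of another gene overlaps it. The median of its surroundings went the other way, though single neighbours rose. Of 44 tested genes within 1 Mb, 15 were called lower and 8 higher, with a median log2 fold change of −0.35. IFITM1, described below, is among the 8 called higher. From 1 to 5 Mb the median was −0.39. The tested genes with profiles most like that of IRF7 across the 4 libraries were DENND6B, MISP3 and AKR1C1, at distances of 0.141, 0.168 and 0.199 between mean-centred log2 CPM values, and 55 genes lay within 0.5.

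IRF3, the constitutive partner of IRF7, was level. It had 1097 and 1142 counts in the controls and 1260 and 1253 in the KO libraries, or 28.7 ± 3.19 and 29.6 ± 0.540 CPM (SD, n = 2 each), and the groups overlapped. The log2 fold change was 0.05 (SE 0.142, edgeR adjusted p = 0.84), and on log2(TPM + 1) it was −0.19. IRF3 spans chr19:49659569-49665875 on the minus strand. Exons of BCL2L12 on the opposite strand cover 19.4% of its exonic bases, and whether the counting used strand is not given in the sources used here. In TPM the ratio of IRF7 to IRF3 was 0.0189 and 0.0331 in the controls and 0.206 and 0.238 in the KO libraries, so IRF7 remained well below IRF3 in all 4.

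IRF2 rose. It had 158 and 166 counts in the controls and 374 and 416 in the KO libraries, or 4.15 ± 0.434 CPM against 9.31 ± 0.906 CPM (SD, n = 2 each), with no overlap. The rise was 2.24-fold, with a log2 fold change of 1.17 (SE 0.204, edgeR adjusted p = 0.012). Its edgeR adjusted p was 0.060 without KO replicate 1 and 0.086 without KO replicate 2, at log2 fold changes of 1.05 to 1.26 over the 4 fits.

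IRF2 spans chr4:184387713-184474580 on the minus strand, beside neighbours on chromosome 4 that were mostly higher or not called. Of 13 tested genes within 1 Mb, 6 were called higher and 0 lower, with a median log2 fold change of 0.63. From 1 to 5 Mb, 7 of 15 were called higher and 0 lower, with a median of 0.82. The part of this stretch in the rise of IRF2 was not tested. HVCN1, HOXC6 and TNNI3 had the profiles most like that of IRF2, and 749 genes lay within 0.5, so many genes shared this shape.

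IRF1, the activator with which IRF2 competes, was not called. It had 277 and 280 counts in the controls and 323 and 297 in the KO libraries, or 7.15 ± 0.942 and 7.30 ± 0.271 CPM (SD, n = 2 each), and the groups overlapped. The log2 fold change was 0.03 (SE 0.197, edgeR adjusted p = 0.92), and it was −0.11 without control replicate 2. The ratio of IRF1 to IRF2 in TPM was 1.61 and 1.44 in the controls and 0.6499 and 0.917 in the KO libraries, so IRF1 exceeded IRF2 in both controls and IRF2 exceeded IRF1 in both KO libraries. With 2 libraries a group an exact permutation test of such a ratio cannot give a two-sided p below 0.33, and none was run.

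The IRF1 locus, chr5:132481609-132490798 on the minus strand, holds a gene that moved far more. AC116366.3, on the opposite strand and overlapping 6.01% of the exonic bases of IRF1, had 15 and 21 counts in the controls and 642 and 2145 in the KO libraries, with a log2 fold change of 6.17 (SE 0.699, edgeR adjusted p = 0.0047). C5orf56, also opposite and overlapping 22%, was at 0.54 and did not pass the test (edgeR adjusted p = 0.15). Without strand, reads from the shared bases cannot be told apart. Of 21 tested genes within 1 Mb of IRF1, 5 were called higher and 1 lower, with a median log2 fold change of 0.32.

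IRF9, the subunit that gives ISGF3 its DNA sequence preference, fell. It had 175 and 283 counts in the controls and 67 and 100 in the KO libraries, or 5.75 ± 1.14 CPM against 1.97 ± 0.593 CPM (SD, n = 2 each), with no overlap. The level was 2.91-fold higher in the controls, with a log2 fold change of −1.54 (SE 0.300, edgeR adjusted p = 0.016). IRF9 kept its call in 3 of the 4 fits with 1 library left out, at −1.89 to −1.26, and its edgeR adjusted p was 0.096 without KO replicate 1.

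STAT2, which carries the activation domain of ISGF3, had 1210 and 1556 counts in the controls and 1650 and 1653 in the KO libraries. These were 35.1 ± 1.34 and 38.9 ± 0.913 CPM (SD, n = 2 each), so both KO values lay above both controls. The log2 fold change of 0.15 (SE 0.120) did not pass the test (edgeR adjusted p = 0.39). In TPM the ratio of IRF9 to STAT2 was 0.371 and 0.339 in the controls and 0.113 and 0.158 in the KO libraries. Within each KO library IRF9 was thus lower relative to its partner than in either control. This comparison does not depend on the scaling between libraries. It does depend on how reads in exons that IRF9 shares with a readthrough gene were assigned.

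IRF9 spans chr14:24161053-24166565 on the plus strand, and its GAS letters are printed above. Exons of the readthrough gene AL136295.5 on the same strand cover 48.4% of its exonic bases, and this gene had 864, 430, 472 and 762 counts. How reads in the shared exons were assigned is not given in the sources used here, so the IRF9 counts are uncertain to that extent. The median log2 fold change of 47 tested genes within 1 Mb was 0.03, with 4 called higher and 5 lower. DNAH10, GOLGA7B and RUNX1T1 had the profiles most like that of IRF9, at distances of 0.089, 0.145 and 0.222, and 63 genes lay within 0.5. STAT2 lies at chr12:56341597-56360155 on the minus strand, among 64 tested genes with a median of 0.08.

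**Figure D3:**
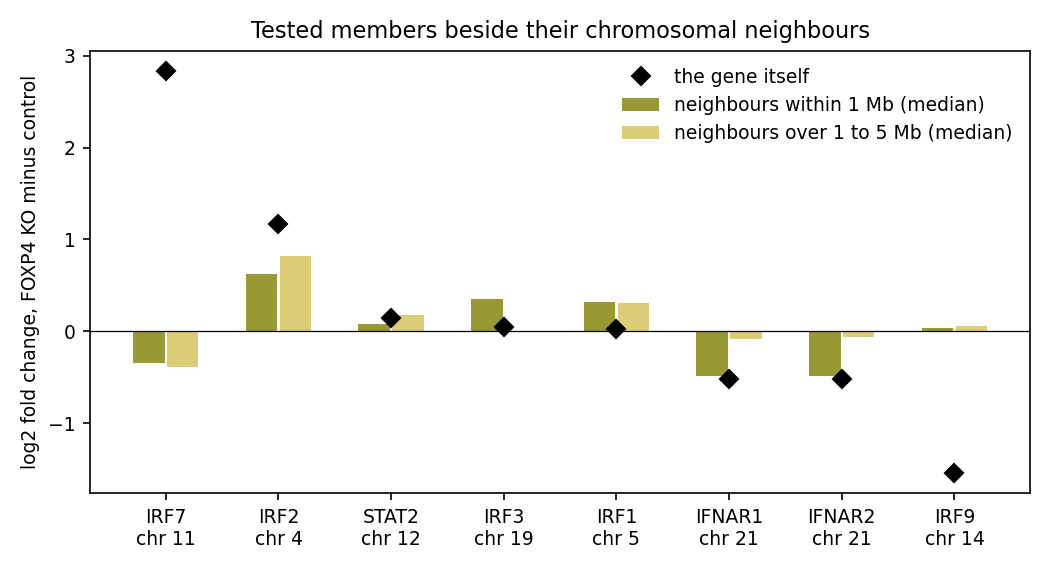
Log2 fold change of each tested gene (diamond) beside the median over tested genes within 1 Mb and over 1 to 5 Mb (bars), with the chromosome under each name. IFNAR1 and IFNAR2 each count among the neighbours of the other. IFNAR1, IFNAR2 and IRF2 lie on the side of their neighbours, IRF7 lies opposite to neighbours with a median of −0.35, and the neighbours of IRF9 have a median of 0.03.

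IRF5 was barely counted, with 9 and 8 counts in the controls and 6 and 3 in the KO libraries. Its levels were 0.168 and 0.123 TPM in the controls and 0.0842 and 0.0439 TPM in the KO libraries. IRF5 was left out by the filter on low counts, and with no filter its log2 fold change was −1.02 (edgeR adjusted p = 0.25), which did not pass the test. DESeq2 gave −1.07 (adjusted p = 0.61), so a difference was not detectable at this depth. It spans chr7:128937612-128950035 on the plus strand. For IFNAR1 and IFNAR2 a likeness of profiles says little, since 5021 and 4551 genes lay within 0.5 of them. The nearest were FAM58A, CEP85L and TP53RK for IFNAR1 and ARFGAP1, ZGLP1 and MRPL23 for IFNAR2.

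The families hold other genes that these cells expressed. Of the 6 other STAT genes 0 were called by edgeR or by DESeq2, and 1 (STAT4, at 0.71) had an unadjusted edgeR p under 0.05, with a median log2 fold change of 0.02. Of the 6 other IRF and IRF2-binding genes 1 rose, 1 fell and 4 were not called, with a median log2 fold change of 0.02. The shares over all tested genes were 13.8% higher and 12.1% lower. IRF8, a factor of myeloid cells, fell by 1.10 on the log2 scale (SE 0.25, edgeR adjusted p = 0.025) from 327 and 311 counts to 140 and 185. It kept its call in only 1 of the 4 fits with 1 library left out, at log2 fold changes of −1.34 to −0.89.

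The genes that lead to IRF3 and IRF7 held large changes in both directions. Of 14 tested activators 2 rose, 3 fell and 9 were not called, with a median log2 fold change of 0.03. The shares over all tested genes were 13.8% higher and 12.1% lower. MYD88, the adaptor of most Toll-like receptors that connects them to IRF7, rose by 5.58 on the log2 scale (SE 0.411, edgeR adjusted p = 0.0018). Its counts were 41 and 18 in the controls and 1553 and 1574 in the KO libraries, and its level went from 0.805 and 0.518 TPM to 26.4 and 27.1 TPM. MYD88 kept its call in all 4 fits with 1 library left out, at 6.43 without control replicate 1 and 4.98 without control replicate 2. Its promoter window is 1 of 13 given for these activators and the only one with the ISRE letters.
MYD88 ISRE, −61 to −53 from the start, chr3:38138590-38138618, plus strand: gcgcttctcgGAAAGCGAAagccggcggg

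IRAK1, a kinase that acts with MYD88 and is needed for IRF7 activation in plasmacytoid dendritic cells, fell by 1.87 on the log2 scale (SE 0.121, edgeR adjusted p = 0.0013). Its counts went from 13087 and 15293 to 4010 and 4410. STING1, the adaptor of the cytosolic DNA route to TBK1 and IRF3, fell by 3.01 (SE 0.262, edgeR adjusted p = 0.0025), from 386 and 368 counts to 45 and 57. Both kept their calls in all 4 fits with 1 library left out. The adaptors that bind TBK1 went apart, since AZI2 rose by 0.67 (edgeR adjusted p = 0.016) and TBKBP1 fell by 0.58 (edgeR adjusted p = 0.024), and AZI2 kept its call in 2 and TBKBP1 in 1 of the 4 fits, with p up to 0.078 without KO replicate 2 and 0.14 without KO replicate 1. MAVS at −0.15, TBK1 at 0.14 and TRAF3 at −0.07 did not pass the test.

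Of 13 tested negative regulators 3 rose, 1 fell and 9 were not called, with a median log2 fold change of −0.12. The shares over all tested genes were 13.8% higher and 12.1% lower. PTPN6, the phosphatase SHP-1, rose by 2.53 (SE 0.213, edgeR adjusted p = 0.0023) from 81 and 80 counts to 510 and 501, in all 4 fits with 1 library left out. USP18, which binds IFNAR2 and dampens the receptor, rose by 0.57 (edgeR adjusted p = 0.029), and SOCS2 rose by 0.78 (edgeR adjusted p = 0.028). CISH, another SOCS family member, fell by 1.36 (edgeR adjusted p = 0.023). SOCS2 kept its call in 0 and USP18 and CISH each in 1 of the 4 fits with 1 library left out, with the highest p at 0.155 without KO replicate 2, 0.128 without KO replicate 1 and 0.15 without KO replicate 1.

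The ligands themselves were at or near 0. Of 21 type I, II and III interferon genes 0 were in the count table, and 14 were listed at 0 TPM in all 4 libraries. The highest value was 0.226 TPM, for IFNE in control replicate 2. At these levels no difference between the groups was detectable.

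Of the listed genes that ISGF3 switches on, those tested leaned to higher levels. Of 50 listed interferon-stimulated genes 38 were in the count table and 35 were tested, of which 17 rose, 2 fell and 16 were not called. Among all tested genes 13.8% were called higher and 12.1% lower. The median log2 fold change of the 35 was 0.88, beside 0.01 for all tested genes. This value depends on the filter, which OAS3, with 2 and 4 control counts, passed through the KO libraries. PARP9 (6 and 38 control counts), DTX3L (8 and 36) and NMI (24 and 7), also called higher, fell short in 1 control and passed likewise. The list was chosen with earlier results of these data known. With no filter on counts the median of the 38 was 0.61. On log2(TPM + 1) with no filter that of the 50 was 0.23. Medians of all genes in these 2 settings were 0.01 and −0.01. Without KO replicate 1 the list median was 0.505, and without KO replicate 2 it was 0.789. Medians of all genes in these fits were 0.0095 and 0.0052. Fewer genes of the list, and of all tested genes, were called higher in these fits than with all 4 libraries. In the fit of all 4 libraries IRF9 was lower and STAT2 was not called.

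OAS3, which makes the 2-5A signal that activates RNase L, had 2 and 4 counts in the controls and 1950 and 2106 in the KO libraries (edgeR adjusted p = 0.00022). UBE2L6, the conjugating enzyme for ISG15, rose by 3.31 on the log2 scale (SE 0.188, edgeR adjusted p = 0.0011) from 74 and 104 counts to 994 and 911. IFITM1, a membrane protein that blocks virus entry, rose by 2.41 (SE 0.150, edgeR adjusted p = 0.0013) from 228 and 272 counts to 1493 and 1379. SP110, a nuclear body protein, rose by 3.08 (SE 0.226, edgeR adjusted p = 0.0018) from 34 and 43 counts to 345 and 359. These 4 genes were called in every fit with 1 library left out.

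IFIH1, the RNA sensor MDA5, rose by 3.77 (SE 0.294, edgeR adjusted p = 0.0019). DTX3L and PARP9, partner proteins encoded head to head on opposite strands, had 8 and 36 counts and 6 and 38 counts in the controls, and 774 and 642 and 623 and 572 counts in the KO libraries. SAMHD1, which breaks down nucleotides, fell by 0.65 (edgeR adjusted p = 0.011), and HERC5, the ligase for ISG15, fell by 0.61 (edgeR adjusted p = 0.030). HERC5 kept its call in 0 and SAMHD1 in 2 of the 4 fits with 1 library left out, with p up to 0.157 without KO replicate 2 and 0.068 without KO replicate 1.

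Among the 16 interferon-stimulated genes that were not called, ISG15 was at 0.13, IFIT1 at 0.37, IFIT3 at −0.23 and EIF2AK2 at −0.00 on the log2 scale. These 4 were picked after their values were seen, and others of the list were called higher. IFI35 rose by 1.46 (edgeR adjusted p = 0.0077), RIGI, an RNA sensor, by 1.22 (0.012), ISG20 by 1.28 (0.028), IFI6 by 0.89 (0.027) and IFIT2 by 1.43 (0.049). Without KO replicate 1 or 2 these 5 genes lost their calls, with edgeR adjusted p of 0.052 to 0.20. ISG20, IFI6 and IFIT2 also lost them without control replicate 1 (0.052, 0.065 and 0.12), and ISG20 without control replicate 2 (0.063). ISG15 had 108 and 158 counts in the controls and 173 and 139 in the KO libraries, so its groups overlapped. EIF2AK2, the kinase PKR, had 3094 and 3873 counts in the controls and 3727 and 3778 in the KO libraries. MX1, not in the count table, was at 0 and 0.0550 TPM in the controls and 0.381 and 0.562 TPM in the KO libraries, and limma on log2(TPM + 1) with no filter called it higher (0.52, adjusted p = 0.030).

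**Figure D4:**
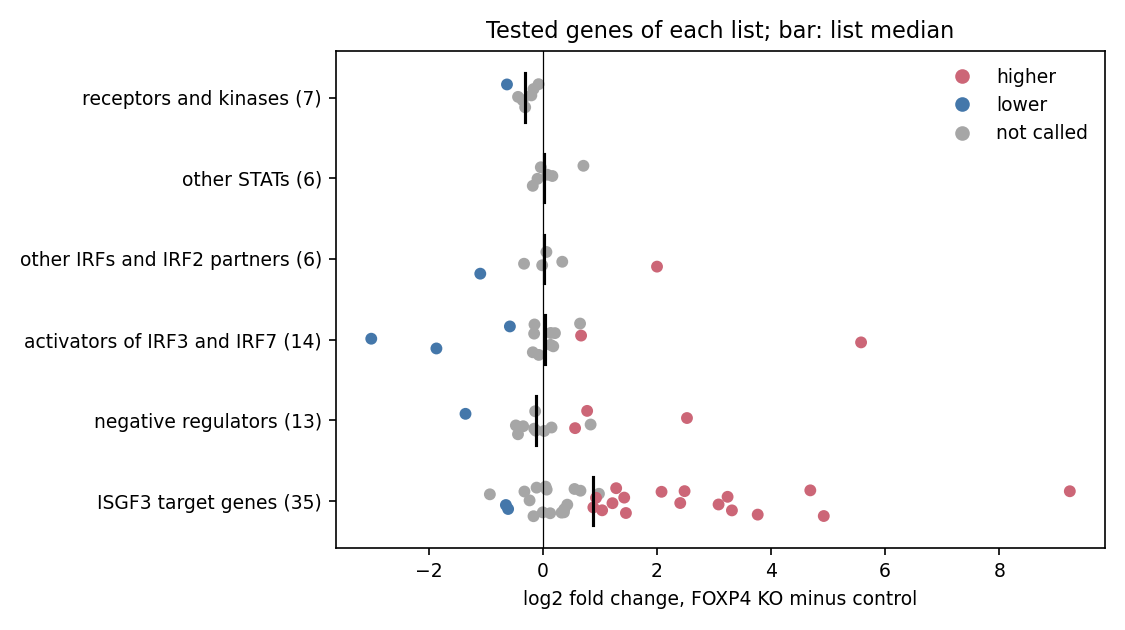
Log2 fold change (FOXP4 KO minus control) of every tested gene in 6 lists around the members, coloured by call, with the list median as a bar and the number tested in brackets. The interferon-stimulated genes spread from −0.93 to 9.24 with a median of 0.88, and the other lists have medians of −0.31 to 0.03.

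The ISRE letters were common in this list, as its genes are known for them. A window was given for 42 of the 50 genes, and 30 (71.4%) held a match, beside 9.86% of 27305 genes with a window. Of the 23 tested genes with a match 9 were called higher and 1 lower, and of the 9 tested genes with a window and no match 6 were called higher and 1 lower. Across all tested genes, 14.6% of the 965 with an ISRE match were called higher and 10.7% lower, beside 13.6% and 12.4% of the 11200 with a window. Examples from genes that rose and genes that were not called are printed together, since the same letters stand in both.
OAS3 (higher), −12 to −4, chr12:112938452-112938480, plus strand: agccgggcggGAAAACGAAaccagaaatc
IFITM1 (higher), −40 to −32, chr11:313990-314018, plus strand: caaacagcagGAAATAGAAacttaagaga
IFIH1 (higher), −21 to −13, chr2:162318687-162318715, minus strand: gaagagaatcGAAACAGAAaccaaagtca
LGALS3BP (higher), −58 to −50, chr17:78979963-78979991, minus strand: gtggtttctgGAAATCGAAagtagactct
DTX3L (higher), −6 to 3, chr3:122564322-122564350, plus strand: ccagggaagcGAAACTGAAactttgcgcc
PARP9 (higher), −40 to −32, chr3:122564322-122564350, minus strand: ggcgcaaagtTTCAGTTTCgcttccctgg
ISG15 (not called), −107 to −99, chr1:1013380-1013408, plus strand: tcgggaaaggGAAACCGAAactgaagcca
IFIT1 (not called), −102 to −94, chr10:89392511-89392539, plus strand: actttcccctTTCGGTTTCcctaggtttc
EIF2AK2 (not called), −6 to 3, chr2:37156968-37156996, minus strand: agtccaagggGAAAACGAAactgagaacc
HERC5 (lower), −73 to −65, chr4:88457036-88457064, plus strand: aacattatgtTTCGTTTTCcactggagct
Capitals mark the ISRE letters, which in PARP9, IFIT1 and HERC5 are read on the opposite strand. The DTX3L and PARP9 lines are 1 stretch of chromosome 3 read from its 2 strands, so these genes share a single match. OAS3, which had the largest change, and EIF2AK2, which was level, carry the same 9 capital letters. The OAS3 window holds a second match at −143 to −135 that is not printed, and EIF2AK2 has only the 1 shown.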

How the data were processed

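RNA sequencing libraries of 293T cells (2 control, 2 FOXP4 KO, grouped by their titles) were used. The authors deposited raw counts per gene, none of them 0, and TPM per gene in another table. For the aligner, the counter and the strand setting, the answer is "not given in the sources used here". GRCm38 and mm10, both mouse builds, appear in the submitters' processing notes, whereas the identifiers are human. KO columns of the TPM table could not be tied to single replicates and stand only for their group. Depth was 36393224 to 43057305 counts per library.

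After filterByExpr and TMM scaling, the two-sided quasi-likelihood test of edgeR 4.0.16 (R 4.3.3) was run on the counts, with Benjamini-Hochberg adjustment over 14620 genes and a threshold of 0.05. The fit was tested on simulated data. Profiles were compared on log2 CPM with a prior count of 2. Positions come from GENCODE v29 on GRCh38, which placed 15201 of 15218 genes. STING1 and RIGI stand in the files under older symbols. Promoter windows and sequences are from RefSeq on GRCh38.p14, and the planned comparison of protein sequences was not run.

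The members and lists were chosen with earlier results of these data known. The rule for named genes takes FOXP4, the 9 members, per list and direction up to 4 called genes of lowest p, and the 3 genes nearest in profile to each called member. The markers, overlapping genes, TYK2, IL10RB, IFNGR2, STAT4, MAVS, TBK1, TRAF3, IFNE, IFIH1, DTX3L, PARP9, NMI, LGALS3BP, ISG15, IFIT1, IFIT3, EIF2AK2, MX1, IFI35, RIGI, ISG20, IFI6 and IFIT2 are named outside it, after their values were seen. Some genes that the rule takes are not reported here. Alternatives were DESeq2 1.42.0, limma 3.58.1 (voom, and trend on log2 of TPM plus 1 or 0.1), 3 other scalings, other filters, a block for the replicate number, and fits that left out 1 library each.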

Additional observations from a re-analysis of the deposited data

How the results depend on the processing

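IRF7, IRF2, IRF9 and IFNAR1 kept their calls in all 11 settings that use every library, and IFNAR2 in 5 of them. With 1 library left out, 0 to 2 members were called lower in place of 3 and 1 to 2 higher in place of 2. Genes called higher ranged from 639 to 2013 and genes called lower from 467 to 1614, with 1195 and 1071 without control replicate 1, 641 and 467 without KO replicate 1 and 639 and 659 without KO replicate 2. IRF3 turned to −0.19 on log2(TPM + 1), with and without a filter, to −0.20 on log2(TPM + 0.1) and to −0.0735 without control replicate 2, within a range of −0.0735 to 0.14 over the fits with 1 library left out. IRF1 turned to −0.11 without control replicate 2 and to −0.0079 without KO replicate 1, within a range of −0.11 to 0.15. The cause was not tested. Upper-quartile scaling gave 2383 genes higher and 1368 lower, beside 2013 and 1765. The replicate numbers did not pair the libraries, and with the number as a block 1981 genes were higher and 1637 lower, and IFNAR2 lost its call (edgeR adjusted p = 0.052). The block changed no other member's call. Depth limited IRF5, and with 2 libraries a group a change that missed the threshold is not shown to be absent.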
